A study of Mus musculus with 54 samples.

Results

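Prostate tissue of 8 intact mice aged 12 weeks was compared, 4 with the genotype DKO_EE and 4 with the genotype DKO, out of 54 RNA-seq libraries from 48 animals in the series. The members were taken by their labels alone: DKO_EE or DKO, intact, 12 weeks. Per the design text, both DKO_EE and DKO_EP mice are DKO animals in which Ezh2 is deleted. The sources used here do not spell out EE or EP, the alleles behind the DKO tumour model, the strain, the promoter that drives recombination or the cells in which it occurs. What all 8 animals share is therefore known here only as DKO. The tissue is labelled as prostate tumour. A further 4 intact DKO_EP mice of the same age served as a second reference, and animals at endstage were used to follow genes over time: 3 DKO and 8 DKO_EE left intact, 4 DKO and 5 DKO_EE castrated at 12 weeks. The intact endstage animals were 35 to 46 weeks old in DKO and 28 to 42 weeks in DKO_EE, and the castrated ones 39 to 99 weeks in DKO and 35 to 59 weeks in DKO_EE. DKO_EP animals at endstage, 3 intact (39 to 52 weeks) and 5 castrated (34 to 37 weeks), also entered the endstage fits. The fits with all 11 groups held these too, and castrated TKO mice: 4 given vehicle (15 to 19 weeks) and 4 given CPI1688 (18 to 19 weeks). The replicates carry separate animal identifiers. The identifiers of DKO replicates 1 to 3 begin with T, and those of DKO replicate 4 and of all DKO_EE and DKO_EP animals begin with DKOE.

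Ezh2 encodes the methyltransferase of Polycomb repressive complex 2 (PRC2), which places a silencing methyl mark on histone H3 at developmental genes. In prostate epithelium, cells of the luminal layer make secretory proteins under androgen control, and prostate tumours can move from this identity toward basal, neuroendocrine or other states. Ezh2 itself is a target of the E2F factors that drive the cell cycle, so its RNA is usually highest in dividing cells. The questions here were how far Ezh2 RNA, PRC2 and the genes of these identities differed between DKO_EE and DKO at 12 weeks, and whether the differences measured at endstage were there at this age.

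The promoters of 2 genes on which the results turn are shown, each from 250 bases before to 50 bases after the RefSeq start on GRCm38.p6. Ezh2 is shown as the deleted gene, with capitals on its 1 match to the E2F motif TTTGGCGC (either strand), at base 254. Probasin (Pbsn), an androgen-driven secretory gene with a large difference at 12 weeks, is shown with capitals on its 1 match to the androgen response half-site TGTTCT, which lies on the other strand and so reads AGAACA, at base 156. The Ezh2 promoter lies at chr6:47594981-47595280 and the Pbsn promoter at chrX:77853451-77853750, both on the minus strand and printed 5′ to 3′.
Ezh2: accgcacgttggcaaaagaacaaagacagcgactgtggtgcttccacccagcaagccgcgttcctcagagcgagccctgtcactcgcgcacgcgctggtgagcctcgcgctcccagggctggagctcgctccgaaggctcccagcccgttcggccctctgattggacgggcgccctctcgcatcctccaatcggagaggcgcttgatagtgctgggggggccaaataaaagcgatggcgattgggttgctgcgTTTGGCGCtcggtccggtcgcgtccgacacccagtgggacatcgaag
Pbsn: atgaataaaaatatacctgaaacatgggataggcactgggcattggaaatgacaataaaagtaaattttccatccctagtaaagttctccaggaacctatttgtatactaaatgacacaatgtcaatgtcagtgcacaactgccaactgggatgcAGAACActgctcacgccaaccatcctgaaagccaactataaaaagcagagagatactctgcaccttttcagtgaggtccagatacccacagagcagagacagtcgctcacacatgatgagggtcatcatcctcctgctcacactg
Over 32851 mouse promoters of this length, 0.514% held the E2F motif and 19.0% the half-site on either strand. The Ezh2 window held 31 CpG dinucleotides and the Pbsn window 2, against a median of 7 over all promoters. A match describes the letters only, and no binding was measured here. The promoter of Msmb, another secretory gene, was not in the table used here.

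Ezh2 (chr6:47530139-47595341, GRCm38) had lower RNA in every DKO_EE animal than in any DKO animal, and was still detected in all of them. Its log2 values were 8.69, 8.39, 8.32 and 8.19 in DKO replicates 1 to 4, against 7.59, 7.69, 7.33 and 7.79 in DKO_EE. The groups did not overlap, and the linear equivalent of the difference was 42.4% less Ezh2 RNA in DKO_EE. The difference was -0.80 on the log2 scale (SE 0.19), with an exact two-sided permutation p of 0.0286, the smallest that 70 arrangements of 4 against 4 allow. Over all genes it did not pass: limma gave an unadjusted p of 0.0012 and an adjusted p of 0.975. In DKO_EP the values were 8.57, 7.76, 8.45 and 8.10, so that DKO_EP replicate 2 lay within the DKO_EE range, replicate 4 lay between the groups and the other replicates lay in the DKO range. Here and below, values are log2 of the deposited normalized count plus 1, differences are DKO_EE minus DKO on that scale, and p-values are limma's.

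The rest of PRC2 showed no such separation. Of 11 PRC2 genes tested, Ezh2 was the single one whose groups did not overlap and the single one with an unadjusted p under 0.05, and the median difference of the list was 0.08. Ezh1, the other methyltransferase of the complex, was at 9.20, 9.02, 9.30 and 8.83 in DKO and at 9.01, 9.0, 8.97 and 8.80 in DKO_EE, a difference of -0.15 (SE 0.13). The core subunits Eed and Suz12 differed by 0.05 (SE 0.13) and 0.17 (SE 0.14), within the spread of the animals. The 20 genes tested within 1 Mb of Ezh2 on either side differed by -0.79 to 0.32, and none of them had an unadjusted p under 0.05 or groups that did not overlap.

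**Figure D1:**
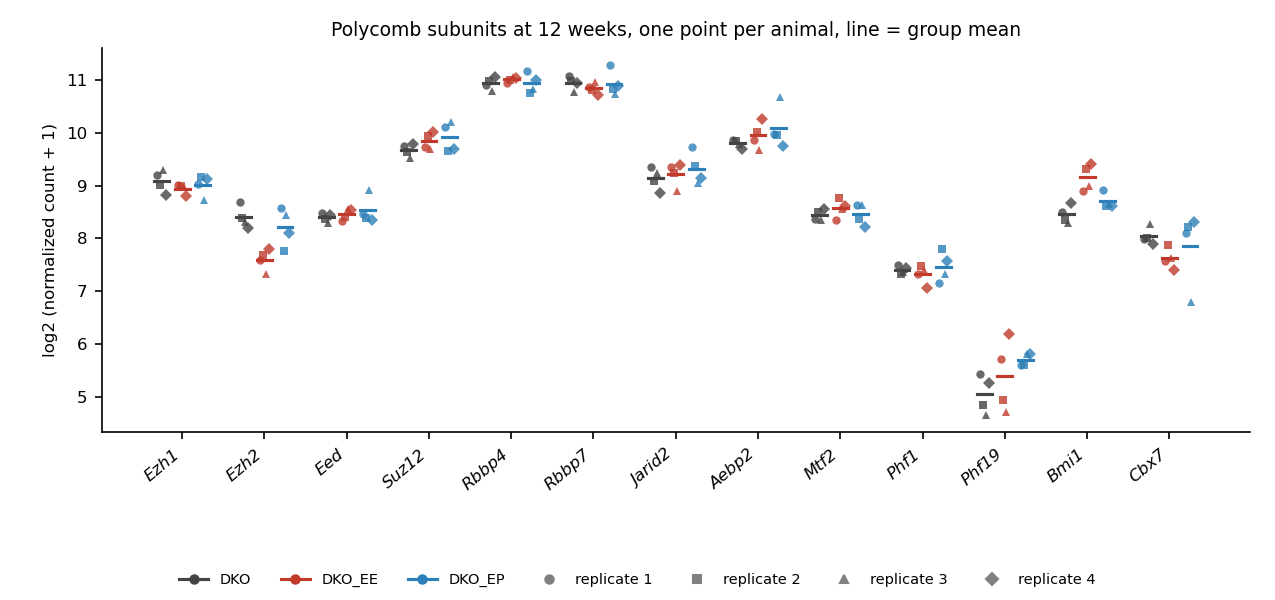
Log2 normalized count plus 1 of the 11 PRC2 genes and of the PRC1 genes Bmi1 and Cbx7 in the 12 animals of 12 weeks, with a symbol for each replicate and a line at each group mean. The 4 DKO_EE animals lie between 7.33 and 7.79 for Ezh2, below the 4 DKO animals at 8.19 to 8.69, and above DKO for Bmi1; the axis is not corrected for gene length.

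Polycomb repressive complex 1 (PRC1) acts with PRC2 and marks histone H2A. Bmi1, a PRC1 subunit that represses Cdkn2a, was higher in mean in DKO_EE. It was at 8.51, 8.34, 8.29 and 8.68 in DKO and at 8.90, 9.32, 9.0 and 9.41 in DKO_EE, with every DKO_EE animal above every DKO animal. The difference was 0.70 (SE 0.14, unadjusted p = 0.00036, adjusted p = 0.975 with limma). Cbx7, a reader of the PRC2 mark, went the other way without overlap, from 7.90 to 8.27 in DKO to 7.40 to 7.88 in DKO_EE. Over the 20 PRC1 genes the median difference was 0.02, and 12 were above 0. The 8 genes tested from a list of demethylases of the PRC2 mark and methyltransferases of other histone H3 sites differed by -0.15 to 0.03.

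Over the transcriptome no gene was called. Of 16626 genes tested, 0 (0.0%) passed an adjusted p of 0.05 with limma on the log2 values, and 0 passed with limma-voom on reads recovered from them. At an unadjusted p under 0.05, 416 genes (2.5%) were higher and 380 (2.29%) lower in DKO_EE, and limma-voom gave 723 in all. All 4 DKO_EE animals lay above all 4 DKO animals in 353 genes (2.12%) and below them in 451 (2.71%). The difference was above 0 in 8680 genes (52.2%), with a median of 0.01. These shares are the background against which the gene groups below are read, and none of the 31 lists held a called gene. The 12 libraries of 12 weeks held 5298874 to 9741808 reads over the table's genes. Adding the other 8 groups to the fit gave 84 calls, 8 higher and 76 lower, which included 11 of the 17 skeletal muscle markers; leaving out DKO replicate 4 gave 5 calls, and keeping only animals with Ttn under 1% of the total gave 10.

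The leading genes that were higher in DKO_EE differed by 0.33 to 3.97. Gnpda1, an enzyme that converts glucosamine phosphate to fructose phosphate, was at 6.36, 6.21, 6.23 and 6.79 in DKO and at 8.22, 7.05, 7.52 and 7.59 in DKO_EE, a difference of 1.20 (SE 0.24, unadjusted p = 0.00029). Smarce1, a subunit of the SWI/SNF chromatin remodelling complex, spanned 9.12 to 9.20 in DKO and 9.44 to 9.68 in DKO_EE, a difference of 0.36. Tra2b, a splicing factor, spanned 9.77 to 9.88 in DKO and 9.98 to 10.29 in DKO_EE. Golph3l and Pxk, both linked to membrane traffic, differed by 0.38 and 0.74, and Lgals9, a galectin of immune regulation, by 0.90. Myo7a, a motor protein best known from sensory hair cells, was at 6.18, 6.77, 6.23 and 7.67 in DKO and at 8.71, 9.52, 7.94 and 9.91 in DKO_EE, a difference of 2.31 (SE 0.60). Ugt1a7c, a glucuronidating enzyme, differed by 1.92 and Asprv1, a protease of cornifying epithelium, by 1.80. None overlapped between the groups, which is how the rule for naming chose them, and each had an adjusted p of 0.975.

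Among the genes lower in DKO_EE, Rbp7 and Aadacl3 had the smallest p, and both fall in the lowest 25% of genes by mean level, which the rule for naming left out; they are named after their values were seen. Aadacl3 averaged 5.05 over the DKO animals (range 1.11 to 6.87), and every DKO_EE and DKO_EP animal was at 0 (unadjusted p = 0.00028, adjusted p = 0.975 with limma). The lowest DKO animal was replicate 4, the only DKO animal whose identifier begins with DKOE, as those of all DKO_EE and DKO_EP animals do. Without it the difference was -6.37. Aadacl3 passed with all 11 groups in the fit (adjusted p = 4.78e-05), without DKO replicate 4 (3.48e-05) and among animals with Ttn under 1% (0.0062). Every DKO and DKO_EE animal at endstage was also at 0 in Aadacl3, so these added no spread to the fit with all 11 groups. Rbp7 had means of 2.15 in DKO and 0.22 in DKO_EE (unadjusted p = 0.00024). Of the genes above that level, Hddc3 had the smallest p. This nucleotide hydrolase was at 6.09, 5.97, 5.99 and 4.97 in DKO and at 3.52, 3.40, 3.77 and 3.58 in DKO_EE, a difference of -2.19 (SE 0.47, unadjusted p = 0.00055). In DKO_EP it was at 4.66, 4.47, 2.65 and 4.69, also below every DKO animal. Cry2, a repressor of the circadian clock, spanned 8.55 to 8.94 in DKO and 7.86 to 8.08 in DKO_EE, a difference of -0.70. Noc2l, which binds histones and represses transcription, differed by -0.46, Enah, a regulator of actin filaments, by -0.36, and Prkab2, a subunit of the energy sensor AMPK, by -0.82. The small nucleolar RNA Snord22 differed by -1.10, Fam131a by -1.05 and Eva1c by -0.71. The remaining leading genes, Acta1, Tcap and Hrc, and the largest differences of all, Myh4, Atp2a1, Myh1, Tnnt3, Xirp2 and Myh8, are genes of skeletal muscle.

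Skeletal muscle RNA set DKO apart from DKO_EE more than any other group of genes. All 17 markers tested were lower in every DKO_EE animal than in every DKO animal, all 17 had an unadjusted p under 0.05 against 2.29% of all genes, and the median difference was -6.37. Titin (Ttn), the giant spring protein of the sarcomere, took 2.55%, 0.113%, 0.183% and 1.40% of the normalized total in DKO replicates 1 to 4. It took 0.0165%, 0.00137%, 0.00239% and 0.00551% in DKO_EE. DKO replicates 1 and 4 were thus far above replicates 2 and 3, which were in turn above every DKO_EE animal. In DKO_EP the marker sum split the same way, at 0.00416% and 0.0125% in replicates 1 and 3 and 3.59% and 3.99% in replicates 2 and 4. Myh4, a myosin of fast fibres, was at 14.95, 8.17, 9.68 and 13.52 in DKO, at 5.07 in DKO_EE replicate 1 and at 0 in the other DKO_EE animals. Acta1, the actin of skeletal muscle, was at 13.24, 9.34, 9.76 and 12.88 in DKO and at 6.49, 3.08, 4.90 and 7.18 in DKO_EE. Striated muscle lies beside the mouse prostate, and how much of it each piece carried is not recorded in the sources used here. In bulk tissue, fewer cells of a type and less RNA per cell cannot be told apart, here and in the groups below. The count of 17 was 11 without DKO replicate 4, 16 among animals with Ttn under 1% and 6 with the identifier letters as a covariate. With the skeletal muscle score (the mean centred log2 level of these same markers) as a covariate, 0 were lower at an unadjusted p under 0.05 and 1 was higher.

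Smooth muscle markers were lower in 16 of 17 genes, with a median difference of -0.67. The 5 with an unadjusted p under 0.05, Synm, Hspb6, Des, Tpm2 and Synpo2, encode intermediate filament, heat shock and thin filament proteins that striated muscle also makes. Desmin (Des) was at 11.49, 10.85, 10.40 and 10.41 in DKO and at 9.87, 8.74, 9.39 and 9.15 in DKO_EE. Myh11, the myosin of smooth muscle, was at 11.95, 12.55, 12.31 and 8.94 in DKO and at 10.57, 9.92, 10.16 and 10.59 in DKO_EE, so that DKO replicate 4 lay below every DKO_EE animal. Without that animal, or without the animals with Ttn over 1%, 13 of the 17 had an unadjusted p under 0.05 and all 17 were lower. With the letters as a covariate 0 were lower and 3 higher at that p, and with the skeletal muscle score 0. Among animals with Ttn under 1%, where DKO keeps replicates 2 and 3, Myh11 differed by -2.12 (adjusted p = 0.033 with limma).

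A pair of androgen-driven secretory genes were low or absent in all DKO_EE animals. Pbsn (chrX:77837901-77853623) was at 7.52, 7.95, 7.78 and 3.37 in DKO and at 1.03, 0, 2.20 and 0 in DKO_EE. Msmb, which encodes microseminoprotein of the prostatic fluid, was at 7.35, 7.33, 7.80 and 3.90 in DKO and at 2.38, 0, 2.87 and 0 in DKO_EE. The groups did not overlap in either gene, although DKO replicate 4 stood well below the other DKO animals in both. The differences were -5.84 (SE 1.35, unadjusted p = 0.0011) and -5.29 (SE 1.37, unadjusted p = 0.0024), with adjusted p = 0.975 for each in limma. Both passed in the limma fit with all 11 groups, at adjusted p = 2.28e-05 for Pbsn and 6.22e-05 for Msmb. Both were at 0 in every DKO and DKO_EE animal at endstage, so those animals added no spread, and the SE was 0.75 in each. That pass adds no evidence from the animals of 12 weeks. Over the 17 alternatives the differences ran from -7.05 to -2.56 for Pbsn and from -6.25 to -2.59 for Msmb. In DKO_EP, Pbsn was at 5.35, 6.36, 0 and 4.43, and Msmb at 6.86, 5.12, 0 and 3.50, so 1 DKO_EP animal was listed at 0 in both.

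Other genes of the secretory epithelium varied more among animals. Tgm4, the transglutaminase of the copulatory plug, was at 4.53, 7.96, 6.47 and 1.74 in DKO and at 1.03, 0, 3.04 and 0.88 in DKO_EE, a difference of -3.94 (unadjusted p = 0.026). Azgp1, a secreted glycoprotein, was at 7.34, 5.49, 6.44 and 4.97 in DKO and at 4.87, 3.54, 4.03 and 1.42 in DKO_EE, a difference of -2.59 (SE 1.35, unadjusted p = 0.079) without overlap. Of the 19 secretory genes tested, 3 were lower at an unadjusted p under 0.05, 0 were higher, and 4 were lower without overlap, namely Pbsn, Msmb, Sbpl and Azgp1. The seminal vesicle genes of the same list scattered widely, for example Svs2 at 1.03, 9.01, 10.19 and 16.83 in DKO_EE and at 4.85 to 7.84 in DKO. Lactotransferrin (Ltf) and lipocalin 2 (Lcn2), secreted defence proteins, had higher means in DKO_EE by 0.71 and 0.91 with overlapping groups. With the skeletal muscle score as a covariate the list's median moved from -1.16 to 0.81, and 2 genes were lower at an unadjusted p under 0.05. Without DKO replicate 4 that count was 5, and with the letters as a covariate 0.

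The androgen response and luminal genes were close between the genotypes, while the basal and squamous medians changed with the setting. Over 30 androgen response genes the median difference was 0.06, with 1 lower at an unadjusted p under 0.05, 0 higher and 17 above 0. With only the 2 groups in the fit 4 were lower, and with the letters or the skeletal muscle score as a covariate the median was -0.13 or -0.07. Krt8, the keratin of luminal cells, lay between 12.68 and 12.99 in DKO_EE and differed by -0.02 from DKO, and the prostate factor Hoxb13 lay between 7.85 and 9.53 in all 8 animals. Both were thus present in all 8 animals. Over 25 luminal genes the median was -0.02. The basal keratin Krt5 was at 9.68, 10.15, 10.25 and 7.21 in DKO and at 9.82, 10.76, 8.40 and 10.20 in DKO_EE. Of 20 basal genes 16 were above 0, with a median of 0.42, and the single one with an unadjusted p under 0.05, Dst, was lower. Squamous genes had a median of 0.62 with 0 of 16 at an unadjusted p under 0.05. With the skeletal muscle score as a covariate the medians turned to -0.36 for the basal and -0.37 for the squamous list, and without DKO replicate 4 the basal one was 0.02 and among animals with Ttn under 1% -0.02. With the letters as a covariate the basal median was 0.97, with 20 of 20 above 0, and the squamous one 0.65.

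**Figure D2:**
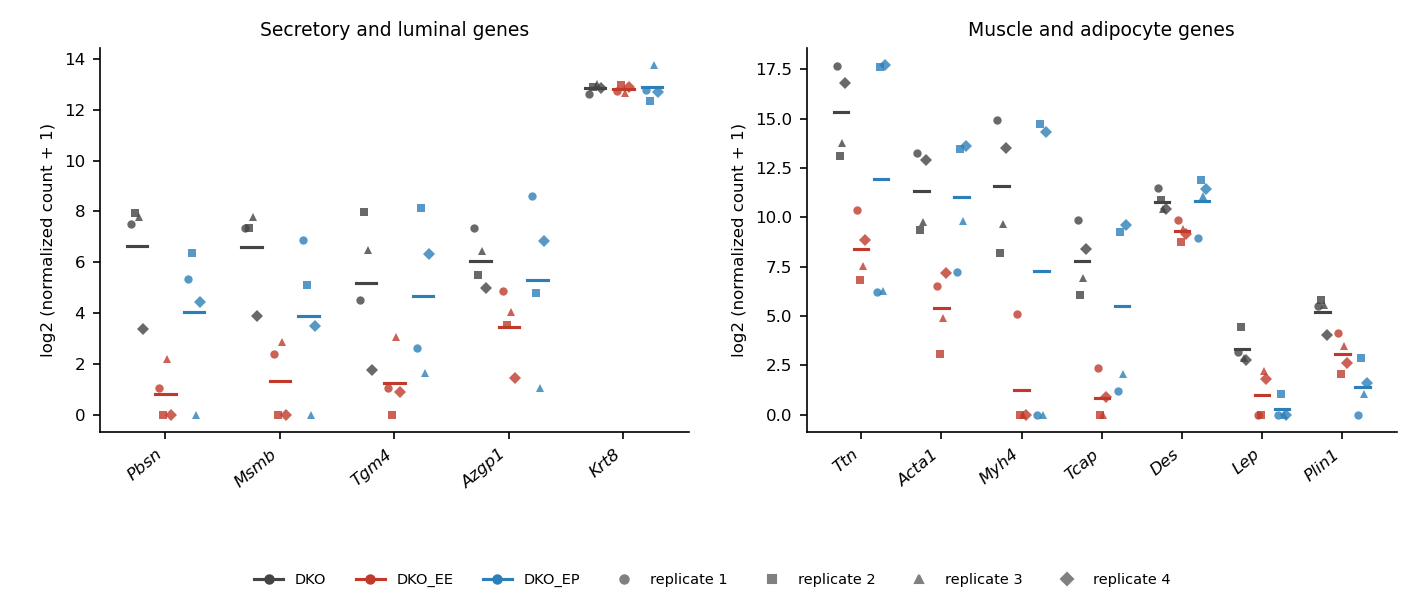
Log2 normalized count plus 1 of secretory and luminal genes (left) and of muscle and adipocyte genes (right) in the 12 animals, with a symbol for each replicate and a line at each group mean. Pbsn and Msmb lie at 2.87 or below in all DKO_EE animals and at 3.37 or above in DKO, and the muscle genes split DKO and DKO_EP into high and low animals.

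Cell cycle genes had higher means in DKO_EE throughout, by amounts that did not pass the adjusted test. All 30 proliferation genes had a difference above 0, and 22 of them had an unadjusted p under 0.05, against 2.5% of all genes in this direction. The median difference was 0.67 and the range 0.29 to 0.91, and 7 genes did not overlap between the groups. Top2a, the topoisomerase that untangles replicated DNA, was at 9.82, 9.84, 9.11 and 10.35 in DKO and at 10.54, 10.26, 10.36 and 10.88 in DKO_EE, a difference of 0.73 (SE 0.26). Ube2c, which with the anaphase complex marks cyclins for destruction, was at 6.50, 6.52, 5.84 and 7.0 in DKO and at 7.57, 7.19, 7.03 and 7.42 in DKO_EE, a difference of 0.84 (unadjusted p = 0.0080). The spindle proteins Tpx2, Cenpe and Kif18b differed by 0.80, 0.78 and 0.95. Mki67, the antigen of dividing cells, was at 10.91, 10.89, 10.15 and 11.41 in DKO and at 11.29, 11.33, 11.27 and 11.90 in DKO_EE. In these 3 genes DKO replicate 3 was the lowest of the 8 animals and DKO replicate 4 the highest of its group, above the lowest DKO_EE animal in Top2a and Mki67 but not in Ube2c.

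The genes that E2F factors switch on for DNA replication leaned the same way. All 33 had a difference above 0, with a median of 0.41, and 3 had an unadjusted p under 0.05: Ccne1, the cyclin of entry into S phase, Cdc45 and Mcm5 of the replicative helicase. Ccne1 spanned 5.49 to 5.84 in DKO and 6.12 to 7.02 in DKO_EE, a difference of 0.90. Ezh2, itself under E2F control, was lower in the same animals. The counts depended on DKO replicate 4. Without it, 28 of 30 proliferation genes and 6 of 33 E2F genes had an unadjusted p under 0.05, whereas with the identifier letters as a covariate 0 of either did. That covariate leaves DKO replicate 4 as the only DKO animal with which DKO_EE is compared. With the skeletal muscle score as a covariate, 2 of 30 and 0 of 33 were left, and among animals with Ttn under 1% all 30 and 12 of 33. With only the 2 groups in the fit the counts were 20 and 8.

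Inhibitors of the cyclin-dependent kinases, several of them classical Polycomb targets, differed one by one. Cdkn2c was at 7.41, 7.10, 7.32 and 7.80 in DKO and at 8.36, 7.93, 8.15 and 8.19 in DKO_EE, without overlap and with a difference of 0.75 (SE 0.18, unadjusted p = 0.0013). Against DKO_EP the difference in Cdkn2c was 0.78 (unadjusted p = 0.0010). Cdkn1c, an imprinted inhibitor, was at 6.05, 5.29, 6.54 and 6.30 in DKO and at 6.91, 7.41, 6.43 and 7.10 in DKO_EE, a difference of 0.92 (unadjusted p = 0.015). Cdkn2a, the best known Polycomb target of this family, had the lower mean in DKO_EE: 6.76, 6.79, 5.57 and 6.0 in DKO against 6.11, 5.33, 4.44 and 4.80, a difference of -1.11 (SE 0.61, unadjusted p = 0.096). The other 4 of the 7 inhibitors differed by -0.02 to 0.40. Over the 7 the median was 0.29, with 2 higher and 0 lower at an unadjusted p under 0.05. With the letters as a covariate 0 were higher at that p, and the median was 0.35. With only the 2 groups in the fit 2 were higher and 1 lower. The median turned to -0.12 with the skeletal muscle score as a covariate.

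Developmental genes under Polycomb control did not have higher means as a group. Of 70 tested, 24 were above 0 and the median was -0.17. None was higher and 3 were lower at an unadjusted p under 0.05: Sim2, Tbx15 and Six3. Sim2, a basic helix-loop-helix factor, was at 7.01, 3.83, 3.88 and 5.34 in DKO and at 2.87, 3.08, 0 and 0 in DKO_EE. Its highest animals were DKO replicates 1 and 4, those with Ttn over 1%. The Sim2 difference of -3.53 turned to 0.03 in 1 of 17 alternatives. Tbx15, at 8.78, 4.52, 5.47 and 7.92 in DKO and 3.23, 0, 2.68 and 1.42 in DKO_EE, is also a gene of muscle development, and its high animals were those with high Ttn. Six3 was listed at 0 in all DKO_EE animals and at 3.91, 3.49, 3.07 and 0 in DKO. With the skeletal muscle score as a covariate the median of the list was 0.40, with 49 of 70 above 0. At an unadjusted p under 0.05, 3 genes (4.29%) were then higher, against 1.68% of all genes, and 1 was lower. Among animals with Ttn under 1%, 2 of 69 were higher and 3 lower at that p, against 2.54% and 2.96% of all genes. With only the 2 groups in the fit 0 were higher and 5 lower. With the letters as a covariate the median was 0.08. The 35 Hox genes had a median of 0.02, with 18 above 0 and 1 at an unadjusted p under 0.05, Hoxc4, which was lower. Without DKO replicate 4 the Hox median was -0.27, among animals with Ttn under 1% -0.15, and with the skeletal muscle score as a covariate 0.35. With the letters as a covariate it was 0.27, with 26 of 35 above 0.

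**Figure D3:**
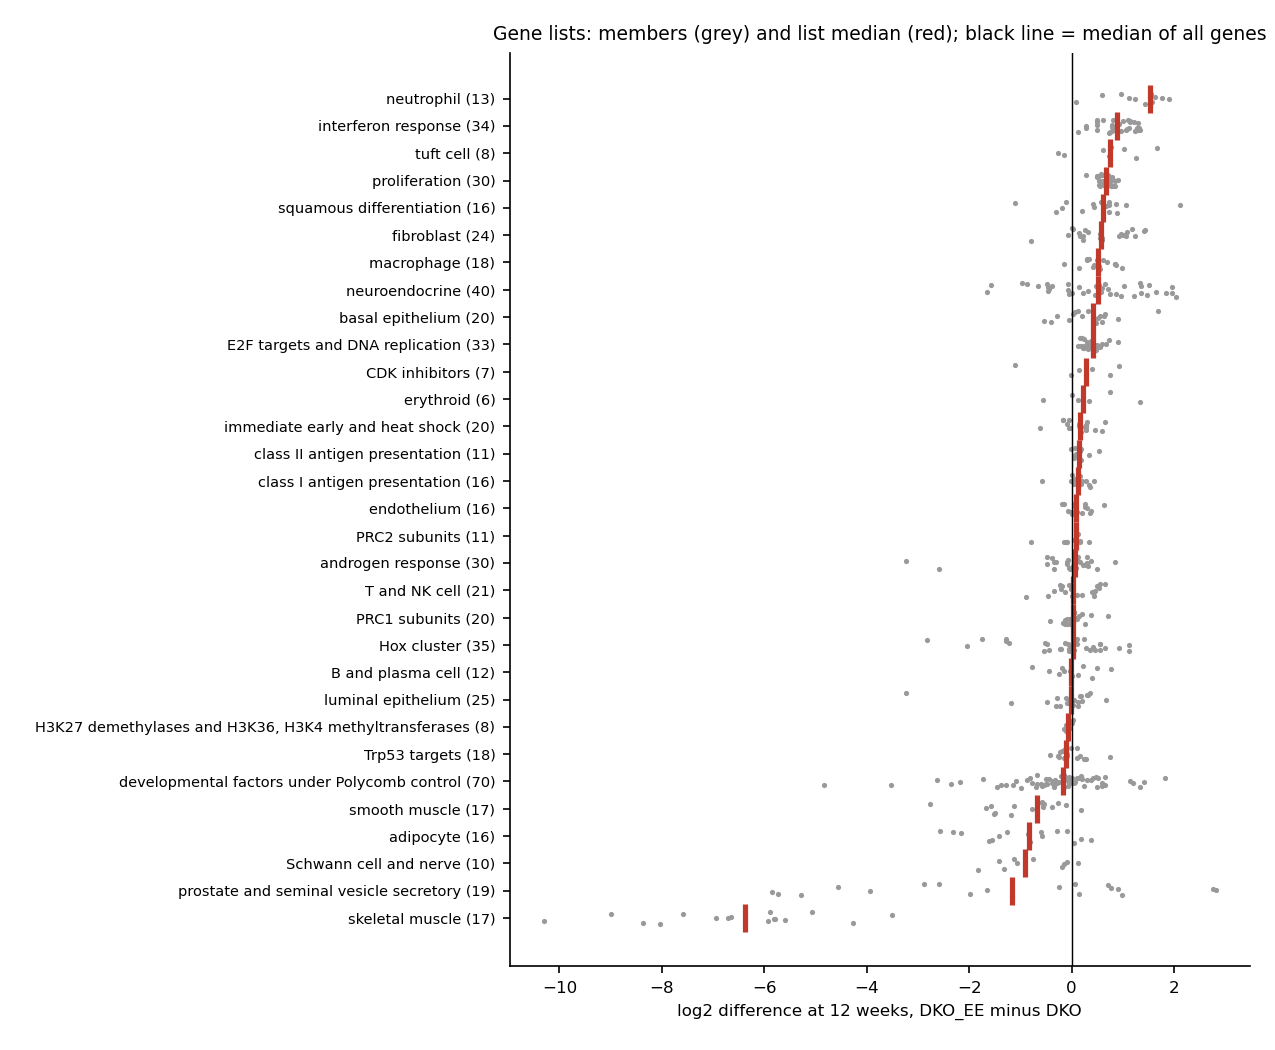
Log2 difference of DKO_EE minus DKO at 12 weeks for each member (grey) of the 31 gene lists, with the list median in red, the number of genes tested in parentheses and the median of all genes as a black line. Skeletal muscle lies lowest with a median of -6.37, and the proliferation, E2F and interferon members all lie above 0.

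Neuroendocrine genes separated animals rather than genotypes. The list, 40 genes of neurosecretory vesicles and neural transcription factors, had a median difference of 0.51, with 27 above 0 and 2 (Neurod1 and Hes6) at an unadjusted p under 0.05. Its mean centred level was -0.25, 1.17, 1.33 and -1.81 in DKO and -0.83, -0.10, 1.37 and 1.84 in DKO_EE, so each genotype held both high and low animals. Chromogranin A (Chga) was at 4.01, 4.92, 5.12 and 1.74 in DKO and at 4.52, 5.92, 5.47 and 8.06 in DKO_EE. Insm1 and Foxa2, factors of the neuroendocrine fate, were also highest in DKO_EE replicate 4, at 7.60 and 6.66. Synaptophysin (Syp), a vesicle protein shared with nerve, was highest in DKO_EE replicate 3 at 7.84, as were Snap25 at 9.72 and Syt4 at 9.55. In that animal the mean centred level of the 10 Schwann cell and nerve genes was 1.42, against -1.17 to -0.36 in the other DKO_EE animals, and in DKO replicates 2 and 3, high in Syp, it was 1.53 and 1.06. The part of nerve in these values was not tested. Without DKO replicate 4 the list's median was -0.03, with 20 of 40 above 0, among animals with Ttn under 1% it was -0.56, and with the letters as a covariate it was 2.41, with 11 genes at an unadjusted p under 0.05.

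Interferon response genes had higher means in DKO_EE in all 34 cases, with a median difference of 0.89. Of these, 17 had an unadjusted p under 0.05, but none separated the groups completely. Zbp1, a sensor of nucleic acid, was at 9.24, 8.23, 8.27 and 9.43 in DKO and at 10.43, 10.84, 9.60 and 9.27 in DKO_EE, a difference of 1.24 (SE 0.38, unadjusted p = 0.0070). The antiviral genes Ifit1 and Ifit3b differed by 1.14 and 1.33. In each of these 3 genes DKO_EE replicates 1 and 2 were the highest animals of the pair of groups, and DKO replicates 2 and 3 the lowest. Without DKO replicate 4 the count was also 17, among animals with Ttn under 1% it was 26, with only the 2 groups in the fit 9, with the skeletal muscle score as a covariate 4 and with the letters as a covariate 0.

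Neutrophil genes had a median of 1.53, with all 13 above 0 and 3 at an unadjusted p under 0.05. Cxcr2, the chemokine receptor of neutrophils, was at 5.40, 5.86, 5.60 and 6.02 in DKO and at 7.51, 8.15, 6.54 and 7.19 in DKO_EE, without overlap, and Mmp9, a secreted gelatinase, differed by 1.54. Without DKO replicate 4 the count of 3 was 2, among animals with Ttn under 1% it was 1, and with either covariate 0, while with only the 2 groups in the fit it was 9, against 4.26% of all genes. Their summed level was 0.00424% to 0.00962% of the total in DKO, 0.0112% to 0.0373% in DKO_EE and 0.00531% to 0.0772% in DKO_EP. Macrophage genes were above 0 in 17 of 18 with a median of 0.51, class I genes in 14 of 16 with 0.13, class II genes in 10 of 11 with 0.14, and T and NK cell genes in 12 of 21 with 0.04. None of these 4 lists held a gene with an unadjusted p under 0.05. With the letters as a covariate the class I median was -0.15 and the macrophage median 0.001, with 9 of 18 above 0. The macrophage median was 0.18 with the skeletal muscle score as a covariate. The mean centred macrophage level was 1.47, -0.50, 0.59 and -0.03 in DKO_EE replicates 1 to 4, and -0.26, -0.07, -0.52 and 0.33 in DKO.

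**Figure D4:**
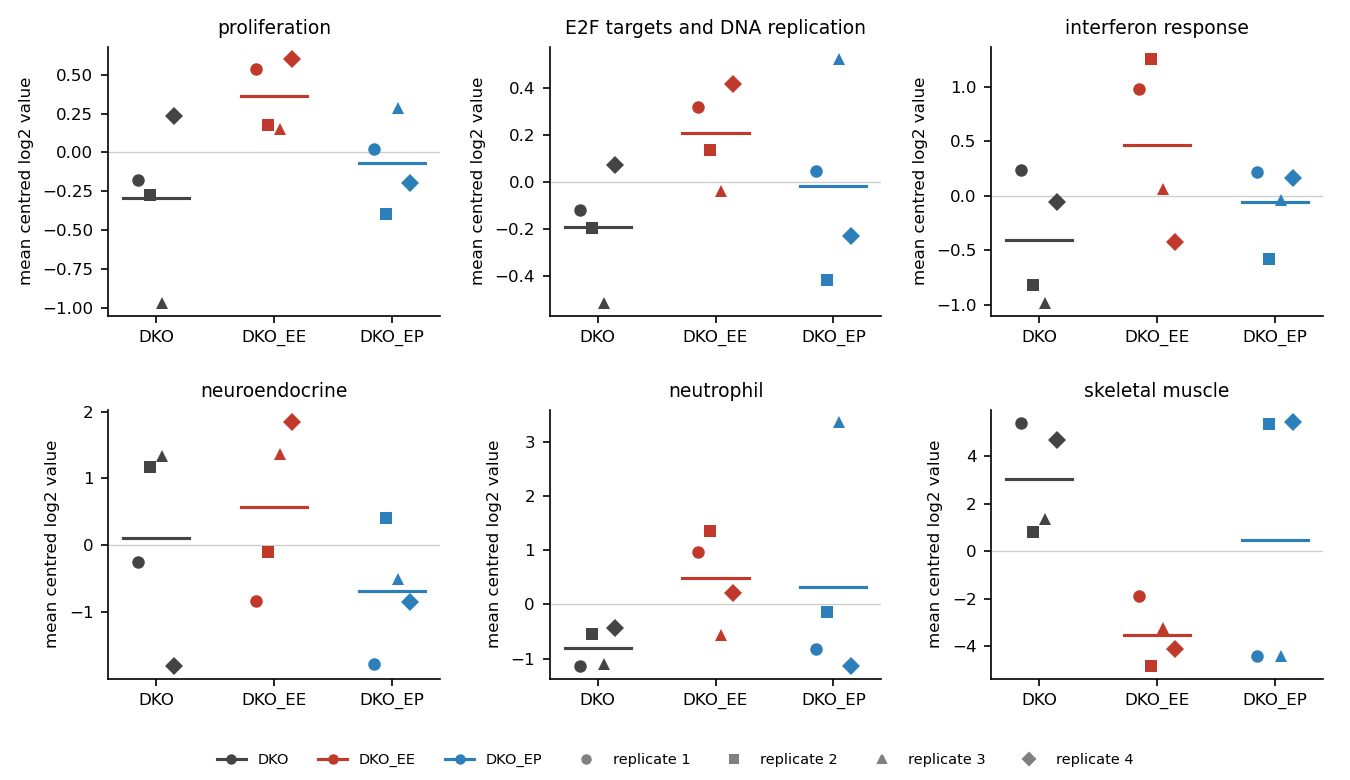
Mean centred log2 level of 6 gene lists in each of the 12 animals (vertical axes differ), with a symbol for each replicate and a line at the group mean. The neuroendocrine level runs from -1.81 to 1.33 in DKO and from -0.83 to 1.84 in DKO_EE, while the skeletal muscle levels of DKO lie between 0.80 and 5.39 and those of DKO_EE between -4.85 and -1.89.

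Stromal groups were mixed. Fibroblast genes were above 0 in 22 of 24, with a median of 0.57. None had an unadjusted p under 0.05 with DKO_EP in the fit, and 9 did, all higher, with only the 2 groups. Col1a1, the main collagen of stroma, was at 11.31, 11.82, 11.07 and 11.38 in DKO and at 14.0, 12.18, 11.56 and 13.59 in DKO_EE, carried by DKO_EE replicates 1 and 4. Adipocyte genes had a median of -0.84 with 4 of 16 lower at an unadjusted p under 0.05, 6 among animals with Ttn under 1%, 1 with the skeletal muscle score and 0 with the letters as a covariate. The fat hormone leptin (Lep) was at 3.18, 4.43, 2.88 and 2.77 in DKO and at 0, 0, 2.20 and 1.82 in DKO_EE, and at 0, 1.04, 0 and 0 in DKO_EP. Endothelial genes had a median of 0.08, and 9 of 10 Schwann cell genes were below 0 with a median of -0.91. Both medians turned: the endothelial one was -0.03 without DKO replicate 4 and -0.02 among animals with Ttn under 1%, and the Schwann cell one was 0.36 with the letters and 0.05 with the skeletal muscle score as a covariate.

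The tumour suppressors Rb1 and Trp53 differed by less than the spread of the animals. Rb1 differed by 0.01 (SE 0.17) and Trp53 by 0.13 (SE 0.15), and 18 Trp53 target genes had a median of -0.11. The labels do not say which of these genes carry alleles in DKO mice, and a total over the gene does not show whether a part of it is deleted.

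Against DKO_EP, the other genotype with Ezh2 deleted, 0 of 16626 genes (0.0%) passed and 593 (3.57%) had an unadjusted p under 0.05. Ezh2 was 0.62 lower in DKO_EE than in DKO_EP (SE 0.19, unadjusted p = 0.0065). All 40 neuroendocrine genes were higher in mean than in DKO_EP, with a median difference of 1.32 and 4 at an unadjusted p under 0.05. In mean centred level of that list, DKO_EE replicates 1 and 2 (-0.83 and -0.10) lay within the DKO_EP range of -1.775 to 0.405. Only DKO_EE replicates 3 and 4 (1.37 and 1.84) lay above it. The proliferation and interferon genes were above 0 in 30 of 30 and 34 of 34, with medians of 0.45 and 0.51, and all 20 immediate early genes were below 0, with a median of -0.34. For that list DKO_EP replicate 3 stood apart: its mean centred level was 2.24 in that animal and -0.26, -0.17 and -0.26 in the other DKO_EP animals, within the DKO_EE range of -0.44 to 0.15. Bmi1 was higher than in DKO_EP by 0.45 (unadjusted p = 0.0081), while Hddc3 differed by -0.55 (SE 0.47) and Myo7a by 0.86 (SE 0.60).

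At endstage, DKO_EE differed from DKO in 277 of 16640 genes (1.66%) in intact mice and in 1278 of 16558 (7.72%) in castrated mice, by limma at an adjusted p under 0.05. Followed back to the separate animals of 12 weeks, fewer than 50% of these genes in each set had the direction of endstage. Over all genes tested at 12 weeks, 8680 of 16626 were above 0 and 7901 below. Of 186 genes higher at intact endstage and tested at 12 weeks, 89 (47.8%) were also above 0, with a median of -0.02 against 1.47 at endstage. Of 88 lower at intact endstage, 35 (39.8%) were below 0 at 12 weeks, with a median of 0.10 against -1.82. For castrated endstage the shares were 250 of 557 (44.9%) higher and 260 of 710 (36.6%) lower, with medians of -0.02 and 0.10. The genes of these sets that had the same sign and an unadjusted p under 0.05 at 12 weeks numbered 7 and 4 for intact and 11 and 11 for castrated endstage, against 6 and 3 and 11 and 16 with the other sign. The 4 lower at intact endstage were Ezh2, Sim2, Kcnj2 and Fbxo32, and the 7 higher included Ifit1, Oasl1, Gbp3 and Lgals9. Of these, Sim2 was highest at 12 weeks in the DKO animals with Ttn over 1%, as given above.

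Single genes showed how much lay between the ages. Fign, an AAA ATPase that severs microtubules, was at 6.31, 6.24, 5.84 and 5.38 in DKO and at 7.31, 4.89, 5.78 and 5.82 in DKO_EE at 12 weeks, a difference of 0.01 (SE 0.43). At intact endstage its mean was 3.68 ± 0.84 in DKO (SD, n = 3) and 7.75 ± 0.39 in DKO_EE (SD, n = 8), a log2 fold change of 4.07. Lhx2, a LIM homeobox factor, had means of 5.0 ± 0.99 in DKO (SD, n = 3) and 0.23 ± 0.44 in DKO_EE (SD, n = 8) at intact endstage. At 12 weeks it was near the floor of detection, at 2.33, 0, 0 and 0 in DKO and at 2.05, 1.05, 2.20 and 1.82 in DKO_EE. Onecut2, another developmental factor, was at 3.81, 9.11, 10.49 and 5.30 in DKO and at 2.05, 10.04, 0 and 12.28 in DKO_EE, so that at 12 weeks DKO_EE held animals both with and without its RNA. Skap1 and Chn1, higher at intact endstage by 5.59 and 3.74, differed by 0.49 (SE 0.60) and 0.19 (SE 0.41) at 12 weeks.

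The interaction, which tests whether the genotype difference itself differs between 12 weeks and endstage, was called in 21 of 16772 genes (0.125%) against intact and in 133 (0.793%) against castrated endstage, and 16 genes were in both. For Fign the 12-week minus endstage value was -4.07 (SE 0.63, adjusted p = 0.00063) against intact and -4.39 (adjusted p = 0.00032) against castrated endstage. For Lhx2 it was 5.96 and 5.02. Pbsn and Msmb were also called, at -5.84 and -5.29, since both were listed at 0 in every DKO and DKO_EE animal at endstage, where no lower value was possible. Nefl, the light chain of neurofilaments, differed by -1.86 at 12 weeks and 11.84 at castrated endstage, an interaction of -13.7. Ezh2 gave no such call: its differences of -0.80, -1.34 and -0.90 at 12 weeks, intact and castrated endstage had interactions of 0.54 (SE 0.41) and 0.11 (SE 0.41).

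**Figure D5:**
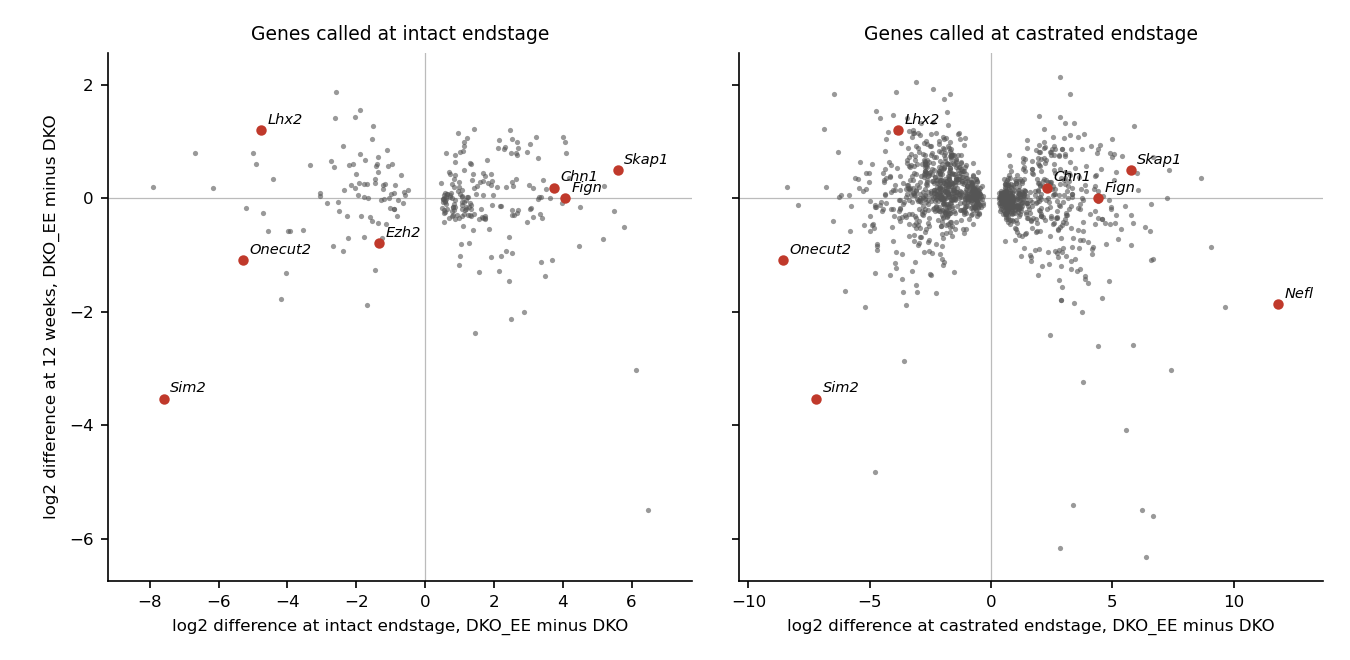
For the genes called between DKO_EE and DKO at intact (left) and castrated (right) endstage, the log2 difference at endstage (horizontal) against that at 12 weeks (vertical), 1 point per gene. Most points lie near 0 on the 12-week axis: 47.8% of the genes higher and 39.8% of those lower at intact endstage share the sign, Sim2 and Ezh2 among them, while Fign lies at 0.01.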

How the data were processed

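Libraries for RNA-seq came from total RNA depleted of ribosomal RNA, per the labels. The authors deposited log2 values of a normalized count plus 1 for 16772 genes. FastQC, STAR, RSEM, limma and DESeq2 are named with GRCm38 and mm10 in the submitters' processing notes, without versions. Every value was a whole multiple of 1 step per library (within 0.05 of a read for 100% of values), which gave back the reads. The table had 56 columns of samples, and 2 of them could be tied to none of the labels and were not used.

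The 12 intact animals of 12 weeks were fitted together with limma 3.58.1 (R 4.3.3, variance trend), and p-values were adjusted by Benjamini-Hochberg over all genes with any spread. Interactions used all 11 groups, with pieces of an animal averaged. The fit was tested on simulated data. Members, the 31 lists and the tests were chosen with earlier results of these data known. Named genes were 38 fixed genes, up to 12 per direction with the smallest p and up to 6 with the largest difference among genes without overlap (unnamed models and the lowest 25% by mean left out), and up to 4 per list with the smallest p, and other members are named where a count of 5 or fewer or an animal's pattern called for it. The genes or alternatives so singled out were chosen after their values were seen: list counts without DKO replicate 4, with letters or the skeletal muscle score as covariates, or with Ttn under 1%. Other settings changed the offset, filter, normalization, weights, groups, covariates and animals. Some genes are not reported here. Depth limits genes with few reads. Gene positions are from GENCODE M21 and promoters from RefSeq.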

Additional observations from a re-analysis of the deposited data

Results flagged for a closer look

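Among the 338 groups of 4 animals formed by the named genes in DKO and in DKO_EE, 21 held an animal whose gap to the nearest other, relative to the group's range, exceeded Dixon's critical value for 4 samples, and chance flags about 1 in 20 groups. DKO replicate 4 was low in Pbsn (3.37), Msmb (3.9), Hddc3 (4.97), Dpp10 (0.0) and Eng (7.05) and high in Hbb-bs (1.11). DKO replicate 3 was high in Kmt2c (12.21), Dsg1a (1.04) and Tgm3 (1.04) and low in Prf1 (2.06). DKO replicate 1 was the only DKO animal with Lhx2 RNA (2.33), and DKO replicate 2 was high in Slc4a1 (1.97) and Gfap (4.43). Among DKO_EE animals, replicate 1 was high in Hoxb13 (8.78), Myh4 (5.07), H2-Q7 (1.63) and Ctss (11.82), and replicate 2 was low in Tnnc2 (0.0). Replicate 3 was low in Skap1 (2.87), and replicate 4 was high in Mki67 (11.9) and Calca (5.51). In Hbb-bs, Dsg1a, Tgm3, Slc4a1 and H2-Q7 the other animals of the group were at 0. Those flags rest on a few reads near the floor of detection.

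The genotype difference itself differed between 12 weeks and endstage in several named genes, by limma's interaction test. Against intact endstage the 12-week minus endstage values were 5.96 for Lhx2, -4.07 for Fign, -5.84 for Pbsn, -5.29 for Msmb and -7.84 for Lars2, a mitochondrial leucyl-tRNA synthetase. Against castrated endstage they were -4.39 for Fign, -5.84 for Pbsn, 5.02 for Lhx2, -5.29 for Msmb and -13.7 for Nefl. In the immune and other leading genes they were 3.15 for Ifi203, 4.92 for Trim12a, 6.28 for Mmp9, 1.13 for Pxk and -2.91 for Hddc3. Of these, only Mmp9 itself differed at castrated endstage (-4.74, adjusted p = 0.027 with limma). In Trim12a, DKO replicates 2 and 3 were at 1.97 and 1.64 at 12 weeks. In the skeletal muscle genes the values were -6.81 for Tcap, -6.65 for Hrc and -10.72 for Myh4. These genes were low in both genotypes at castrated endstage. The means in DKO and DKO_EE were 0.90 and 0.73 for Tcap, 2.0 and 2.63 for Hrc, and 0 and 0.41 for Myh4. The Lars2 value rests on widely spread animals: at intact endstage it ran from 11.54 to 21.88 in DKO_EE and from 9.44 to 10.80 in DKO. The Lars2 difference at intact endstage did not itself pass (6.68, adjusted p = 0.077 with limma). Castrated DKO_EE animals lay at 7.99 to 8.34 in Lars2. The source of the high values was not tested.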

How the results depend on the processing

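The count of 0 called genes between DKO_EE and DKO at 12 weeks became 84 when all 11 groups shared a fit, and 10 when only animals with Ttn under 1% were kept. Leaving out each animal in turn gave 0 to 5 calls, the 5 without DKO replicate 4. The count of 0 between DKO_EE and DKO_EP became 1 with all 11 groups. Every other alternative run, limma-voom included, gave 0 for both. The 21 interaction calls against intact endstage became 172 with only the 4 groups of the interaction, 9 without the lowest 25% of genes, 34 with limma-voom and 15 to 42 without each DKO or DKO_EE animal of 12 weeks (endstage animals were not left out), the 42 without DKO replicate 4. The 133 against castrated endstage became 534, 62, 54 and 63 to 139 in the same order, with 73 without DKO replicate 1, 63 without DKO_EE replicate 2 and 67 without DKO_EE replicate 4. The cause was not tested. Ezh2 kept its direction in all 18 alternatives, between -1.10 and -0.58, with adjusted p between 0.128 and 1.0. Of 68 other genes followed, 21 changed sign in at least 1 alternative and 15 were called in at least 1. The edgeR and DESeq2 tests that had been listed were not run, and limma-voom on the recovered reads was run in their place. No paired analysis was possible because the replicate numbers follow accession order and pair no animals.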

Other observations

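A pair of clusters of immune genes differed between animals in a way of their own, and were looked at after their values were seen. The p200 family on chromosome 1 encodes sensors of DNA in the cytoplasm and nucleus. Ifi202b was at 4.76, 4.33, 3.53 and 8.01 in DKO replicates 1 to 4, at 9.47, 8.71, 9.59 and 8.61 in DKO_EE and at 8.59, 7.29, 10.5 and 7.84 in DKO_EP. The 3 DKO animals with identifiers beginning with T were thus below every other animal. Ifi203 was at 9.13, 8.93, 7.64 and 9.5 in DKO and at 10.94, 10.55, 10.11 and 10.54 in DKO_EE, a difference of 1.73 (SE 0.38, unadjusted p = 0.00073 with limma). Mndal and Aim2 did not overlap either, with differences of 1.17 and 1.62, whereas Ifi205 differed by 0.09.

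The Trim12 and Trim30 genes of chromosome 7, relatives of the antiviral factor TRIM5, split the animals differently. Trim12a was at 7.58, 1.97, 1.64 and 8.43 in DKO and between 8.07 and 9.45 in all DKO_EE and DKO_EP animals. Trim30d was at 8.49, 4.33, 4.17 and 9.02 in DKO and between 8.69 and 10.4 elsewhere. DKO replicates 2 and 3 were low in both genes and DKO replicate 1 was not, while Trim12c, a neighbouring copy, lay between 9.1 and 9.94 in DKO and DKO_EE alike. Members of both families are near copies of one another, so how their reads were shared out is uncertain, and the strain of each animal is not given in the sources used here.

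Lars2 was at 9.83 and 10.59 in DKO replicates 2 and 3, and between 7.14 and 8.07 in the other 10 animals. Lin28b, an RNA-binding protein of early development, had a mean of 1.01 in DKO, 4.06 in DKO_EE and 0.26 in DKO_EP. Every DKO_EE animal lay above every DKO animal in Lin28b (difference 3.05, SE 0.60, unadjusted p = 0.00031 with limma, adjusted p = 0.975). The rule for naming by smallest p did not choose Lin28b, and it was named after its values were seen. It was not among the genes followed over the alternatives.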
